A study of Homo sapiens with 2 samples.

Results

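The 10 surface genes described here, of 20263 genes listed, encode adhesion molecules and sialomucins, and were measured in Cal-27 cells, an established oral squamous cell carcinoma line derived from tongue. The group holds MCAM, L1CAM, ALCAM, ICAM1, NECTIN1 and BCAM, all of the immunoglobulin superfamily, the sialomucins PODXL and PODXL2, the hyaluronan receptor CD44 and the epithelial adhesion molecule EPCAM. The genes were chosen by name with the values of these same libraries already known, and differences between the libraries were among what they were chosen on. Their values are therefore a description and carry no test.

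The study compared cells stably transduced with the vector GV-248-HIPK2-sh, an shRNA against the nuclear kinase gene HIPK2, with cells carrying the control sh-scramble, both grown in regular medium with serum. Each group was 1 library from 1 stably transduced culture, which leaves the spread between cultures unmeasured. No p-value is given, and every difference is one between libraries. The total count was 26450251 in the library labelled HIPK2 shRNA and 28064923 in the scramble library. HIPK2 had 218 counts (0.873 TPM) in the library labelled HIPK2 shRNA and 110 counts (1.63 TPM) in the scramble library, so the label is met by its TPM and not by its counts. Count and TPM are linked by a transcript length, and the length implied for HIPK2 was longer in the library labelled HIPK2 shRNA. Which measure reflects the level of HIPK2 RNA was not tested. Whether the libraries carry the right labels cannot be told from 1 library per group, and with exchanged labels every ratio below would turn round. All 12 squamous epithelial markers checked were expressed, and 1 of them was past 2-fold lower, the keratin gene KRT14, with 44 counts in the library labelled HIPK2 shRNA and 318 counts in the scramble library. Of the markers of other cell types, 3 of 9 for fibroblasts, 2 of 9 for endothelium, 3 of 10 for leukocytes and 2 of 10 for melanocytes and neurons were expressed.

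Immunoglobulin-type adhesion molecules bind partners on neighbouring cells, or matrix proteins, through their outer domains, and many of them join actin or ankyrin through a short tail inside the cell. Sialomucins such as podocalyxin carry dense, negatively charged sugars that can keep membranes apart, and their tails bind PDZ adaptors and the ezrin family. CD44 binds hyaluronan and is abundant on stratified squamous epithelium, while EPCAM is typical of simple epithelia and of many carcinomas.

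Of the 10 genes, PODXL2 and MCAM differed most between the libraries, so the 250 bases upstream of their annotated starts are shown here. They come from RefSeq (GRCh38.p14), which had an entry for 7 of the 10 genes and none for NECTIN1, PODXL or EPCAM. They lie at chr3:127628935-127629184 on the plus strand for PODXL2 and at chr11:119317131-119317380 on the minus strand for MCAM. Both strands were searched for the GC box GGGCGG, the CCAAT box CCAAT, the cyclic AMP response element TGACGTCA, the AP-1 site TGANTCA, the kappa-B-like site GGAANTTCC and the TATA-like TATAAA, and capitals mark the matches.
PODXL2: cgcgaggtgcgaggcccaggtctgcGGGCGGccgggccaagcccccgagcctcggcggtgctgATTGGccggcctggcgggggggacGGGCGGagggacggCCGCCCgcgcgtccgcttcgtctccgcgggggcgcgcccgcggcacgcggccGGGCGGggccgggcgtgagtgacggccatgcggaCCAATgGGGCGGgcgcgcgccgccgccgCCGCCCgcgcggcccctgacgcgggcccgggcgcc
MCAM: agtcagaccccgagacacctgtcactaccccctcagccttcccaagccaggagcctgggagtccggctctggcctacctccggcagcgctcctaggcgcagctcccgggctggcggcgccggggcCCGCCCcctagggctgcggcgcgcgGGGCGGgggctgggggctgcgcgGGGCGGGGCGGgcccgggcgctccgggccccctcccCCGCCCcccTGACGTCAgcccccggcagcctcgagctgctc

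The PODXL2 window was 85.2% G and C, above 99.6% of 34943 promoter windows of the same length, and its ratio of observed to expected CpG, 1.09, was above 96.7% of them. It held 6 GC boxes and 2 CCAAT boxes, and of all windows 42.5% held a GC box and 32% a CCAAT box. An exon of an antisense transcript overlaps part of it in GENCODE 29. The MCAM window was 79.6% G and C and held 5 GC boxes, of which a pair overlap by 1 base, and 1 cyclic AMP response element. That element was in none of the windows of the other 6 genes with an entry and in 1.63% of all windows. Neither printed window held the AP-1, kappa-B-like or TATA-like letters, which 6.59%, 0.824% and 10.8% of all windows hold. A match of letters is a description and not a measured binding site.

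All 10 genes were expressed, meaning at least 1 CPM (counts scaled to library depth, here with TMM factors) in a library. Levels between genes were compared by the authors' TPM, which accounts for transcript length. Brackets give 95% counting intervals, which cover counting error only and treat each read as a separate molecule. PCR reads without molecular identifiers cannot be taken as separate molecules, so the intervals may be too narrow even for counting error. CD44 was the most abundant of the group in both libraries, with 304 TPM (298 to 310) in the library labelled HIPK2 shRNA and 597 TPM (588 to 605) in the scramble library. ICAM1 came second, with 150 TPM (147 to 153) in the library labelled HIPK2 shRNA and 168 TPM (165 to 172) in the scramble library. The summed level of the 10 genes was 720.1 TPM in the library labelled HIPK2 shRNA and 971 TPM in the scramble library, and CD44 alone made 42.2% of it in the library labelled HIPK2 shRNA and 61.4% in the scramble library.

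Below ICAM1 the order differed between the libraries. In the library labelled HIPK2 shRNA it ran BCAM (104 TPM), EPCAM (58.5 TPM), PODXL2 (46.7 TPM), NECTIN1 (28.4 TPM), ALCAM (14.4 TPM), PODXL (8.89 TPM), MCAM (3.93 TPM) and L1CAM (1.2 TPM). In the scramble library it ran EPCAM (78.8 TPM), BCAM (56.3 TPM), MCAM (35.4 TPM), ALCAM (15.4 TPM), NECTIN1 (13.2 TPM), PODXL (6.46 TPM), L1CAM (0.539 TPM) and PODXL2 (0.129 TPM). No neighbours in either order had overlapping counting intervals, and in the scramble library ALCAM (14.6 to 16.2 TPM) and NECTIN1 (12.5 to 13.9 TPM) came close to it. PODXL2 held place 5 of 10 in the library labelled HIPK2 shRNA and place 10 in the scramble library. MCAM held place 9 in the library labelled HIPK2 shRNA and place 5 in the scramble library.

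**Figure D1:**
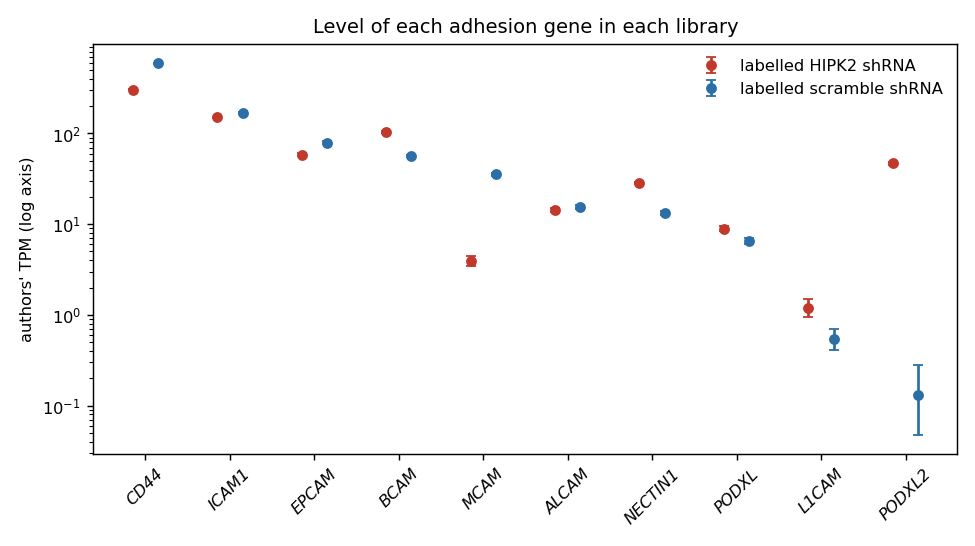
TPM of each gene (log axis) in the library labelled HIPK2 shRNA (red, left of each pair) and in the scramble library (blue), with 95% counting intervals as bars. PODXL2 (46.7 against 0.129 TPM) and MCAM (3.93 against 35.4 TPM) are the widest pairs, while ICAM1 and ALCAM nearly coincide.

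Differences between the libraries are given as the ratio of CPM, the library labelled HIPK2 shRNA over scramble. A gene was called past 2-fold when the log2 ratio of CPM + 1 was at least 1 or at most -1, which sets a size and tests nothing. By this rule 4 of the 10 genes were called, 2 higher (PODXL2 and NECTIN1) and 2 lower (MCAM and CD44) in the library labelled HIPK2 shRNA. Over all 11813 expressed genes the rule called 6.13%, with 3.26% higher and 2.87% lower. Since the genes were chosen on this contrast, nothing is read from the difference between these shares. The median log2 ratio was 0.065 over the 10 genes and 0.00023 over all expressed genes, with 5 of the 10 above 0 and 5 below.

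The podocalyxin family held the widest difference. PODXL2, also called endoglycan, is a sialomucin related to podocalyxin and CD34 that can serve as a selectin ligand. It lies on chromosome 3 (127629181 to 127672809, plus strand, GRCh38, ENSG00000114631) and had 1839 counts in the library labelled HIPK2 shRNA and 6 counts in the scramble library. That is 68.0 CPM (64.9 to 71.1) in the library labelled HIPK2 shRNA and 0.219 CPM (0.0803 to 0.476) in the scramble library. The ratio was 311 with a counting interval from 142 to 848, which is wide because it rests on 6 counts. On the log2 scale with the pseudocount it was 5.82, rank 1 of all 11813 expressed genes from the top. Its TPM gave a ratio of 362.

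PODXL, podocalyxin itself, a sialomucin of the kidney podocyte and of many carcinomas, differed far less. It had 850 counts (31.4 CPM) in the library labelled HIPK2 shRNA and 706 counts (25.7 CPM) in the scramble library, a ratio of 1.22 (1.1 to 1.35). PODXL2 thus had 5.25 times the TPM of PODXL in the library labelled HIPK2 shRNA and 0.0200 times that of PODXL in the scramble library. The more abundant of the pair was PODXL2 in the library labelled HIPK2 shRNA and PODXL in the scramble library.

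Among the immunoglobulin-type genes, MCAM was lower and NECTIN1 higher in the library labelled HIPK2 shRNA. MCAM, also known as CD146, is an adhesion molecule of endothelium, smooth muscle and melanoma that also binds laminin alpha 4 (chromosome 11, 119308529 to 119317116, minus strand, ENSG00000076706). It had 235 counts in the library labelled HIPK2 shRNA and 2296 counts in the scramble library, which is 8.68 CPM (7.61 to 9.87) in the library labelled HIPK2 shRNA and 83.7 CPM (80.3 to 87.2) in the scramble library. It was 9.64-fold lower (8.42 to 11.1) by CPM and 9.0-fold lower by TPM. Its log2 ratio of -3.13 was rank 7 from the bottom of all expressed genes.

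NECTIN1, which joins adherens junctions to actin through afadin and is an entry receptor for herpes simplex virus, had 2874 counts in the library labelled HIPK2 shRNA and 1431 counts in the scramble library. Its level was 106 CPM in the library labelled HIPK2 shRNA and 52.2 CPM in the scramble library, a ratio of 2.04 (1.91 to 2.17). The log2 ratio of 1.01 (0.92 to 1.1) lies just past the limit, its interval reaches below it, and with a pseudocount of 5 CPM it was 0.96. NECTIN1 lies on chromosome 11 (119638098 to 119729084, minus strand), the chromosome of MCAM, and differed in the opposite direction.

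BCAM, the Lutheran blood group glycoprotein and a receptor for laminin alpha 5, had 4504 counts (166 CPM) in the library labelled HIPK2 shRNA and 3185 counts (116 CPM) in the scramble library. Its CPM ratio was 1.43 (1.37 to 1.5) and its TPM ratio 1.84. ICAM1, the receptor for leukocyte integrins, had 8678 counts (321 CPM) in the library labelled HIPK2 shRNA and 10574 counts (385 CPM) in the scramble library, 1.2-fold lower (1.17 to 1.24). ALCAM, the CD6 ligand also known as CD166, had 1183 counts (43.7 CPM) in the library labelled HIPK2 shRNA and 1331 counts (48.5 CPM) in the scramble library, 1.11-fold lower (1.03 to 1.2). ICAM1 and ALCAM were thus nearly level, although their counting intervals exclude a ratio of 1.

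L1CAM, a neural adhesion molecule that some carcinomas express, was the member with the fewest counts apart from PODXL2 in the scramble library. It had 73 counts (2.70 CPM) in the library labelled HIPK2 shRNA and 54 counts (1.97 CPM) in the scramble library. Its CPM ratio of 1.37 had a counting interval from 0.951 to 1.99, so a difference in CPM was not detectable at this depth. It was the single member of the 10 whose interval held 1.

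CD44 and EPCAM, outside both families, had lower levels in the library labelled HIPK2 shRNA. CD44 (chromosome 11, 35138870 to 35232402, plus strand) had 9310 counts in the library labelled HIPK2 shRNA and 19294 counts in the scramble library. That is 344 CPM in the library labelled HIPK2 shRNA and 703 CPM in the scramble library, 2.04-fold lower (1.99 to 2.1). Its log2 ratio was -1.03 (-1.07 to -0.99) by CPM and -0.97 by TPM, and with other scalings of the counts it was -0.96 (library totals alone and upper-quartile scaling). The 2-fold call of CD44 is thus lost in TPM and under both of these scalings. EPCAM had 1810 counts (66.9 CPM) in the library labelled HIPK2 shRNA and 2658 counts (96.9 CPM) in the scramble library, 1.45-fold lower (1.36 to 1.54). In these bulk libraries fewer cells that express a gene and less RNA per cell cannot be told apart.

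**Figure D2:**
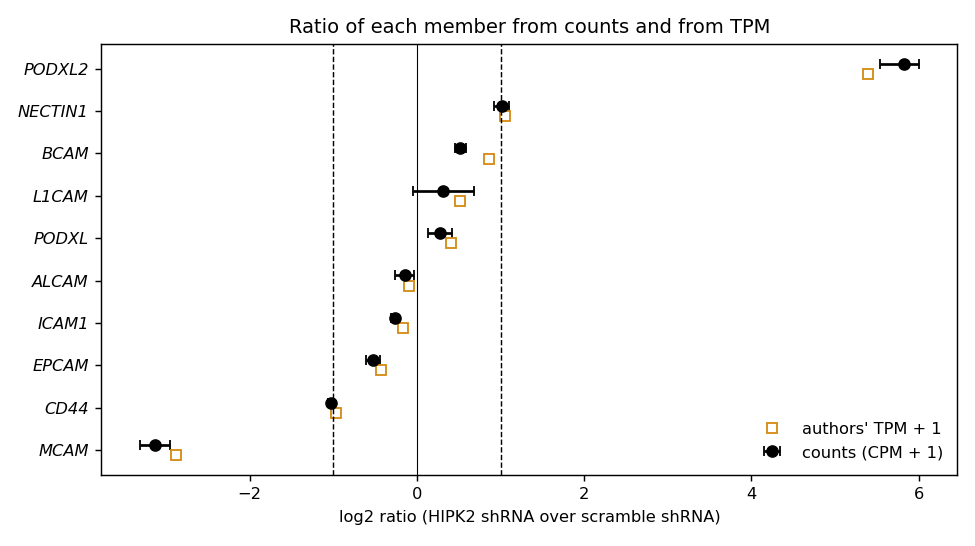
Log2 ratio of each gene, the library labelled HIPK2 shRNA over scramble, from counts (black, CPM + 1, bars are 95% counting intervals) and from the authors' TPM (open squares, TPM + 1); dashed lines mark 2-fold. All 10 genes lie on the same side of 0 in both measures, and CD44 (-1.03 and -0.97) straddles the limit.

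**Figure D3:**
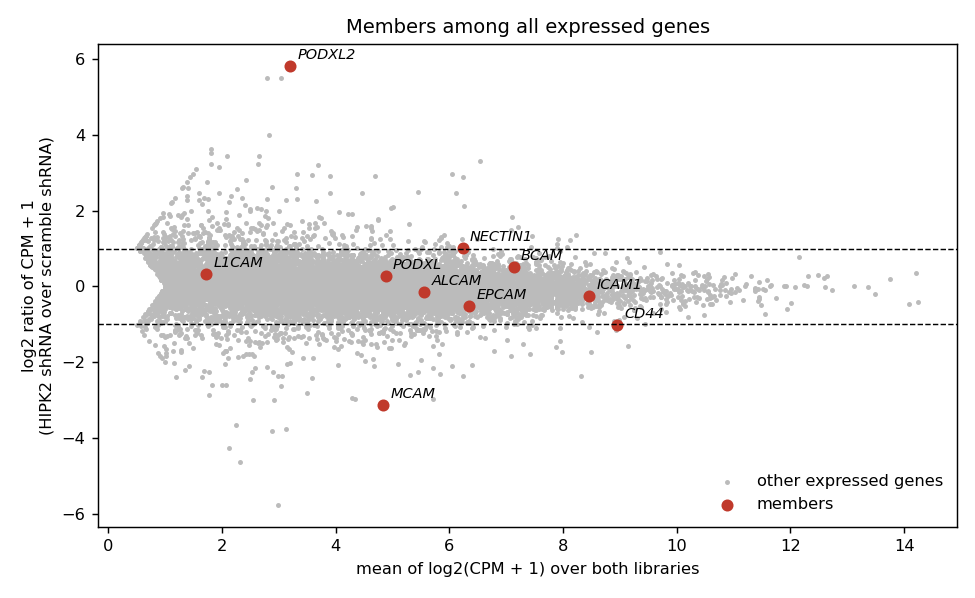
Log2 ratio of CPM + 1, the library labelled HIPK2 shRNA over scramble, against the mean of log2(CPM + 1) for all 11813 expressed genes (grey), with the 10 adhesion genes in red and dashed lines at 2-fold. PODXL2 at 5.82 is the highest point of the plot, MCAM at -3.13 is among the lowest, and CD44 is the most abundant of the group.

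Count and TPM are linked by a transcript length, which the deposited values imply for each gene in each library. For genes with 1 annotated transcript this length lay within 10% of the annotated one in 98.7% of cases in both libraries, after 1 calibration factor per library. Of the 9 members with at least 50 counts in both libraries, 7 had implied lengths within 5% of each other. MCAM implied 3304 bases in the library labelled HIPK2 shRNA and 3299 in the scramble library, and its 1 coding transcript in GENCODE 29 has 3313. For PODXL2 the length was 2179 bases in the library labelled HIPK2 shRNA, and the annotated coding transcript has 2186. CD44, with 26 annotated coding transcripts of 352 to 5732 bases, implied 1693 bases in the library labelled HIPK2 shRNA and 1646 in the scramble library. PODXL implied 5291 bases in the library labelled HIPK2 shRNA and 5563 in the scramble library, longer than its coding transcripts in GENCODE 29, which have 2011 and 2105.

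L1CAM and BCAM had the widest differences in implied length among the 9. L1CAM implied 3362 bases in the library labelled HIPK2 shRNA and 5098 in the scramble library, and its annotated coding transcripts range from 569 to 5141 bases. Its TPM was 1.2 in the library labelled HIPK2 shRNA and 0.539 in the scramble library, a ratio of 2.23 against 1.37 by CPM. BCAM implied 2405 bases in the library labelled HIPK2 shRNA and 2878 in the scramble library, and its coding transcripts have 862, 2453 and 3414 bases. L1CAM was the 1 of 9 members at least 1.2-fold apart, and of 10342 expressed genes with at least 50 counts in both libraries 12.8% were. By TPM with a pseudocount of 1, 3 of the 10 genes were past 2-fold (PODXL2, NECTIN1 and MCAM), and of all expressed genes 4.9% were.

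The genes next to a member on the chromosome were mostly level. Among 59 distinct neighbours, the 3 listed genes on either side of each member, 39 were expressed. Of these, 1 was past 2-fold higher and 2 were past 2-fold lower, which is 7.69%, a share near the 6.13% of all expressed genes. Their median log2 ratio was -0.15. The 3 were CBL, which overlaps MCAM, MGLL, 16252 bases from PODXL2, and BBX, 1946035 bases from ALCAM. BBX was named after its values were seen. BBX had a log2 ratio of -1.03 by CPM and 0.43 by TPM.

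At the PODXL2 locus, the gene on the upstream side, MCM2, a subunit of the replicative helicase, had 13217 counts in the library labelled HIPK2 shRNA and 12689 counts in the scramble library, a ratio of 1.06. ABTB1, which begins 125 bases past the end of PODXL2 on the same strand, had 101 counts in the library labelled HIPK2 shRNA and 110 counts in the scramble library, a ratio of 0.931. The next gene on that side is MGLL, which encodes monoglyceride lipase and is read from the opposite strand. It had 164 counts in the library labelled HIPK2 shRNA and 1464 counts in the scramble library, 8.81-fold lower (7.49 to 10.4), against the direction of PODXL2. The 2 further expressed neighbours, TPRA1 and PLXNA1, had ratios of 0.766 and 1.17.

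At the MCAM locus, CBL, a ubiquitin ligase that acts on receptor kinases, overlaps MCAM on the opposite strand. CBL had 276 counts in the library labelled HIPK2 shRNA and 42 counts in the scramble library, a ratio of 6.66, with 1.36 TPM in the library labelled HIPK2 shRNA and 0.333 TPM in the scramble library. In GENCODE 29 both genes share 509 exonic bases, 6.86% of the exonic bases of MCAM. These shares are of the merged exons of all annotated transcripts of a gene. For MCAM that is more than its 1 coding transcript of 3313 bases, of which the shared part was not computed. Whether the counting used strand was not given in the sources used here, so reads of the shared part cannot be assigned to either gene. RNF26 on the other side had a ratio of 1.36. ICAM1 (21.99% of its exonic bases), L1CAM (4.94%), NECTIN1 (1.92%) and CD44 (0.840%) also share exonic bases with opposite-strand transcripts not used here, and L1CAM shares 6.04% with another gene on its own strand. In that annotation PODXL2, ALCAM and BCAM overlap no other gene.

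The neighbours of the other called genes stayed within 2-fold. Beside CD44, PDHX had a log2 ratio of -0.53, APIP -0.15, EHF 0.34, SLC1A2 -0.29, PAMR1 0.27 and FJX1 -0.05. Around NECTIN1, TRIM29 (382190 bases away) had 0.20 and OAF (481682 bases away) -0.41.

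**Figure D4:**
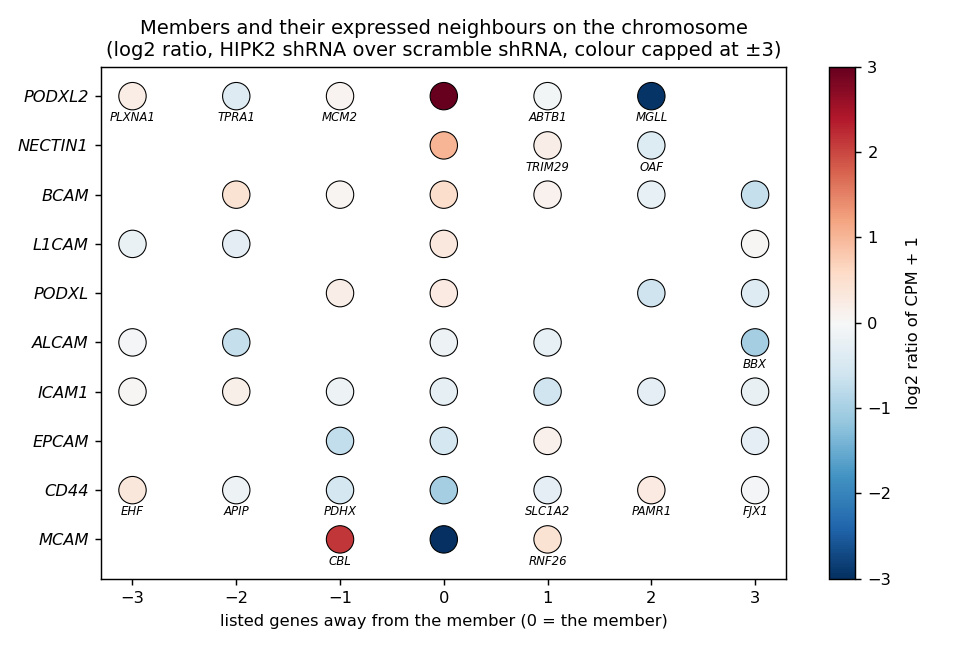
Log2 ratio of CPM + 1, the library labelled HIPK2 shRNA over scramble, for each member (position 0) and its expressed neighbours, ordered by position on the chromosome; colour gives the ratio, capped at ±3, and neighbours are named beside members past 2-fold or where they are past 2-fold themselves. MGLL lies 2 genes from PODXL2 with the opposite colour, and CBL lies beside MCAM with the opposite colour.

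Relatives and partners of the members were then described from lists of genes. The shares past 2-fold over all expressed genes, to set beside the counts below, were 6.13% in all, 3.26% higher and 2.87% lower. The lists are small and were chosen with earlier results known, so nothing is read from these counts. The list of other nectins and nectin-like molecules, relatives of NECTIN1, also holds their adaptor afadin. Its 6 expressed genes had log2 ratios above 0 by CPM and by TPM, with a median of 0.43, and 1 was past 2-fold. Of all 11813 expressed genes 5909 were above 0 by CPM, and their median log2 ratio by TPM was 0.08. For NECTIN3, with 28 counts in the library labelled HIPK2 shRNA and 26 counts in the scramble library, the counting interval of the ratio (0.617 to 1.94) holds 1. CADM4 had 183 counts in the library labelled HIPK2 shRNA and 68 counts in the scramble library, 2.73 times higher (2.05 to 3.66). Afadin (AFDN), which ties nectins to actin, had a ratio of 1.5 (1.28 to 1.75), the poliovirus receptor PVR one of 1.38 (1.28 to 1.48) and NECTIN4 one of 1.37 (1.14 to 1.66). The median was 0.10 when the 4 genes at 0 counts in both libraries were kept.

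Of 16 other expressed immunoglobulin-type adhesion genes, 1 was past 2-fold higher and 1 lower, with a median of -0.16 (0 without the filter). CEACAM1 had 101 counts in the library labelled HIPK2 shRNA and 30 counts in the scramble library, 3.41 times higher (2.25 to 5.32). ICAM2 had 50 counts in the library labelled HIPK2 shRNA and 129 counts in the scramble library, 2.54-fold lower (1.82 to 3.60). EMB, the gene of embigin, had a log2 ratio of -0.76. CD47, the ligand of SIRP-alpha that restrains phagocytosis, had one of -0.75 by CPM and -1.95 by TPM.

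Among 6 other expressed sialomucins and selectin ligands, 1 was past 2-fold lower, with a median of -0.23 (0 without the filter on low genes). CD34, the relative of both podocalyxins, had 50 counts in the library labelled HIPK2 shRNA and 137 counts in the scramble library, 2.70-fold lower (1.94 to 3.82). MUC1 had a log2 ratio of 0.55, SELPLG one of -0.49 and CD164 one of -0.35. MCAM, CD34 and ICAM2 are also known from endothelium. Of the 9 endothelial markers checked, KDR, TIE1, TEK and EMCN had 0 counts in both libraries, as did PECAM1, while CDH5 had 740 counts in the library labelled HIPK2 shRNA and 1513 counts in the scramble library. The 2 expressed markers of that list went opposite ways, CDH5 with a log2 ratio of -0.99 and the other with 0.17. The summed TPM of that list was 11.3 in the library labelled HIPK2 shRNA and 19.9 in the scramble library, and its part in the differences of MCAM, CD34 and ICAM2 was not tested.

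The ezrin family and PDZ adaptors link podocalyxin and CD44 to actin. Their list here also holds ankyrin genes and a spectrin gene. Of 9 expressed genes 1 was past 2-fold, with a median of -0.15. NF2, the gene of merlin, was 2.11 times higher (1.97 to 2.27) by CPM, with a log2 ratio of 1.06 by CPM and 0.37 by TPM. EZR, ezrin itself, had 372 CPM in the library labelled HIPK2 shRNA and 691 CPM in the scramble library, 1.86-fold lower (1.81 to 1.90). SLC9A3R1, the PDZ adaptor NHERF1 that binds podocalyxin, was 1.60 times higher (1.51 to 1.70). ANK3, an ankyrin, had a log2 ratio of 0.84 by CPM and 0.09 by TPM.

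For CD44, the list of hyaluronan and splicing genes had 8 expressed members and a median of 0.13 (0 without the filter), with 1 past 2-fold. HAS3, a hyaluronan synthase, had 328 counts in the library labelled HIPK2 shRNA and 60 counts in the scramble library, 5.54 times higher (4.2 to 7.43), but its log2 ratio of 2.04 by CPM was 0.80 by TPM. The hyaluronidase HYAL2 had log2 ratios of 0.58 by CPM and 1.34 by TPM, HYAL1 -0.64 and -0.04, and HYAL3 0.28 and 0.34. ESRP1 and ESRP2, which control splicing of the variable exons of CD44, stood within 1.2-fold by CPM.

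Sheddases cut CD44, L1CAM, EPCAM and ALCAM from the surface. Of 16 expressed sheddase and gamma-secretase genes 2 were past 2-fold lower, as were 2.87% of all expressed genes. The median of the list was -0.03, which was 0.03 with library totals alone and 0.04 with upper-quartile scaling. ADAM8 had 30.9 CPM in the library labelled HIPK2 shRNA and 135 CPM in the scramble library, 4.38-fold lower (4.06 to 4.73). The membrane metalloproteinase MMP14, which cleaves CD44, had 166 CPM in the library labelled HIPK2 shRNA and 360.2 CPM in the scramble library, 2.17-fold lower (2.09 to 2.25). BACE1 had a log2 ratio of 0.87. ADAM10 and ADAM17, which shed several of the members, had log2 ratios of 0.18 and -0.09.

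Of the 10 expressed genes listed around EPCAM, mostly its tetraspanin and claudin partners, 0 were past 2-fold and 8 had ratios below 0 (7 with library totals alone, with upper-quartile scaling or by TPM), with a median of -0.31. Of all 11813 expressed genes 5904 were below 0 by CPM. CD9 was 1.78-fold lower (1.70 to 1.86), CD82 1.55-fold (1.48 to 1.62) and the EPCAM partner CLDN7 1.38-fold (1.25 to 1.54). SPINT1 had a log2 ratio of -0.47 by CPM and -0.14 by TPM.

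Among 12 expressed ligands and counter-receptors 1 was past 2-fold in each direction. The median was -0.02, but 0.04 with library totals alone, 0.05 with upper-quartile scaling and 0.02 by TPM. LAMA5, the laminin chain that BCAM binds, had 383 CPM in the library labelled HIPK2 shRNA and 186 CPM in the scramble library, 2.07 times higher (2.0 to 2.14), the same direction as BCAM. ITGB2, the beta chain of the integrins that bind ICAM1, had 69 counts in the library labelled HIPK2 shRNA and 196 counts in the scramble library, 2.80-fold lower (2.12 to 3.74). The galectin LGALS1 had a log2 ratio of -0.91, and ITGA4, with 8 counts in the library labelled HIPK2 shRNA and 30 counts in the scramble library, one of -0.69.

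**Figure D5:**
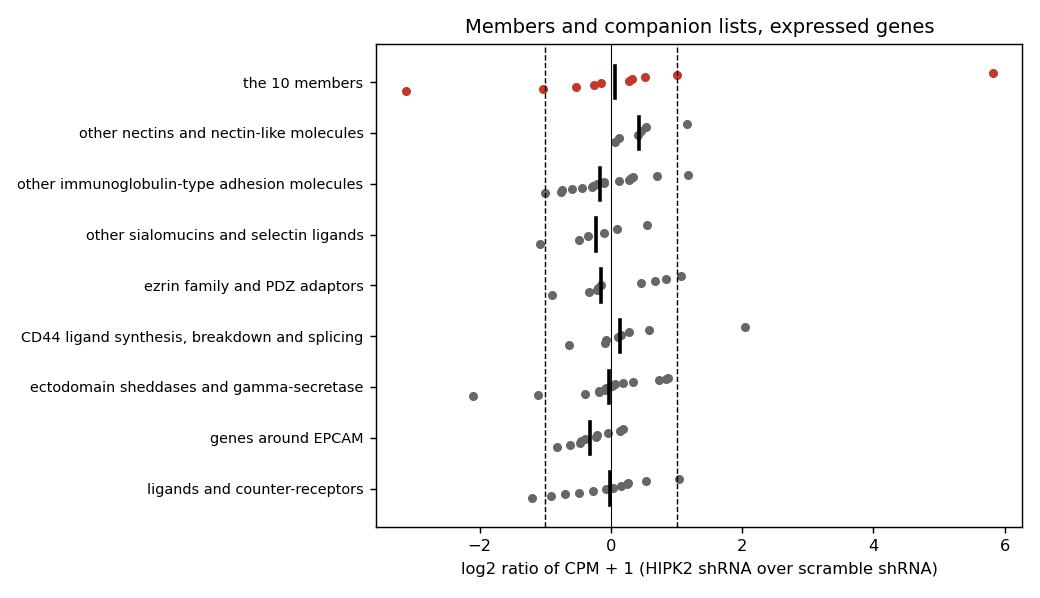
Log2 ratio of CPM + 1, the library labelled HIPK2 shRNA over scramble, for the expressed genes of the 10 members (red) and of 8 companion lists (grey). The nectin list holds afadin, and the ezrin list holds ankyrin genes and a spectrin gene. Thick bars are medians and dashed lines mark 2-fold. PODXL2 at 5.82 and MCAM at -3.13 lie outside every companion list, whose widest values are HAS3 at 2.04 and ADAM8 at -2.1.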

How the data were processed

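RNA of 1 Cal-27 culture per group was sequenced as paired-end 150 bp reads on the HiSeq platform, per the labels' protocols. Per the submitters' processing notes, FastQC and TopHat2 2.1.1 were used on build GRCh38 (hg38). The counting tool, annotation and strand setting were not given in the sources used here. The authors deposited, per the file headers, a whole-number count, a TPM and an FPKM per gene. FPKM was used only for the implied transcript length (count over FPKM and total count).

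Counts were scaled to CPM with TMM factors (1.02 for the library labelled HIPK2 shRNA and 0.977 for scramble) from edgeR 4.0.16 in R 4.3.3. No edgeR or other test was run. Intervals are 95% exact: Poisson for levels, and Clopper-Pearson conditional on the summed count for ratios (scipy 1.17.1). The pseudocount of log2 ratios was 1 CPM or 1 TPM, and plain ratios had none. The scripts were tested on simulated data. Overlaps used GENCODE 29, and motifs used RefSeq promoters. Positions are those of the files.

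The members and lists were chosen with earlier results of these data known. Named are all members, up to 4 expressed genes with the largest absolute log2 ratio per companion list, genes overlapping a member, and expressed neighbours of members past 2-fold; 1 gene of this rule is not reported here. NECTIN3, PECAM1, ADAM10, ADAM17, ESRP1, ESRP2, BBX and the cell type markers KRT14, CDH5, KDR, TIE1, TEK and EMCN were named outside that rule, after their values were seen. Alternatives were other scalings, pseudocounts, filters, folds and TPM.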

Additional observations from a re-analysis of the deposited data

How the results depend on the processing

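No paired analysis was possible because a single library stands for each group, and none could be left out. Of the 10 genes' 60 log2 ratios under other scalings, pseudocounts and TPM, 60 kept their sign and 46 stayed within the counting interval, and a filter cannot move them. The log2 ratio of PODXL2 ranged from 3.81 to 7.74 and that of MCAM from -3.25 to -2.70. The 2 members past 2-fold higher became 1 with a pseudocount of 5 CPM and at 4-fold. The 2 lower became 1 with library totals alone, upper-quartile scaling and TPM, where CD44 lies just short of 2-fold, and at 4-fold. All genes past 2-fold, 385 higher and 339 lower, became 676 and 515 with a pseudocount of 0.1 CPM, 124 and 161 with 5 CPM, 159 and 217 with a filter at 10 CPM, 1254 and 1176 at 1.5-fold and 62 and 48 at 4-fold. These changes follow from the settings: a larger pseudocount moves log2 ratios toward 0, most at low CPM, a filter keeps fewer genes, and a higher limit calls fewer. Of 64 companion list medians, 9 changed sign or became 0. L1CAM drops out at 10 CPM. Depth limits L1CAM and the scramble level of PODXL2, where 3 counts are worth 0.109 CPM.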

Other observations

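The arrangement of PODXL2 and MGLL was looked at across the genome after their values were seen. Of 7743 pairs of expressed genes with 1 listed gene between them, 14 had both genes past 2-fold in opposite directions between the library labelled HIPK2 shRNA and the scramble library. That is 0.181% of the pairs. Of single expressed genes, 3.26% were past 2-fold higher and 2.87% lower, and no share expected of pairs was computed. PODXL2 and MGLL were the 1 pair in which both genes were past 4-fold in opposite directions. The pattern was set by this pair, and PODXL2 has the highest log2 ratio of all expressed genes, so nothing is read from its rarity. This is a count over these libraries, with no replicate check.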
